A study of Homo sapiens with 15 samples.

Results

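H3K4me3 at promoters was compared between BrM2 and LM2, the brain-metastatic and the lung-metastatic sub-population of the MDA-MB-231 line, by using all 22572 H3K4me3 consensus peaks and the 4 H3K4me3 libraries of these lines, out of 15 samples in the series. MDA-MB-231 is an established triple-negative, claudin-low human breast cancer cell line, and its parental population (Par) was the third line profiled. The Par libraries entered the same fit and shared in its estimate of the spread, on which the p-values rest. Per the labels, all cells were grown for 3 days in medium with 10% serum and fixed in 1% formaldehyde for 10 min, and no line carried a further treatment. The study's methods give a longer fixation than the labels. Each line had 2 replicates, and both sub-populations were obtained by selection in mice, so that each stands for 1 selected population rather than for all cells that reach that organ. A peak was assigned to a gene when it lay within 2 kb of the 5′ start of a protein-coding gene in GENCODE (hg19). This gave 11155 promoter peaks (49.4% of all peaks) and 13064 genes with a promoter peak, of 20175 protein-coding genes annotated.

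H3K4me3 is the trimethylated form of lysine 4 of histone H3, which methyltransferases of the SET1 and MLL families place around the start sites of active genes, mostly over CpG islands. It marks a promoter as active or poised and is commonly read as a sign of transcription, although its level does not measure transcription itself. Genes that differ between brain-tropic and lung-tropic cells have been sought among secreted factors, adhesion molecules, matrix proteins and neuronal genes, since tumor cells meet different vessels and different neighbouring cells in each organ.

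The 200 bases before the gene start are given for 5 genes whose promoter peaks separated the lines, read 5′ to 3′ on the strand of the gene from the hg19 (GRCh37) reference, with each CG dinucleotide in capitals. They are shown because these promoters range from CpG-rich to CpG-poor. The first 3 belong to promoters higher in BrM2 and the last 2 to promoters higher in LM2.
KHDRBS2 (chr6, 62996131 to 62996330, minus strand): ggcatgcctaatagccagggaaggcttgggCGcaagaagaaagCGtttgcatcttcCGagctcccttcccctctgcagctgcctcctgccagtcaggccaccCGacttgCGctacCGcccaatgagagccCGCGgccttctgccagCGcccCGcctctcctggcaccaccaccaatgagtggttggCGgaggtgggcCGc
NRK (chrX, 105066332 to 105066531, plus strand): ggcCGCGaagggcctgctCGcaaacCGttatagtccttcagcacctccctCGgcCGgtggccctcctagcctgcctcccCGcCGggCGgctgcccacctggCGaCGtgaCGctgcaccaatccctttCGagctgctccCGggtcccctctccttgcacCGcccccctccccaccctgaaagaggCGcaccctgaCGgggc
ADGRL3 (chr4, 62065844 to 62066043, plus strand): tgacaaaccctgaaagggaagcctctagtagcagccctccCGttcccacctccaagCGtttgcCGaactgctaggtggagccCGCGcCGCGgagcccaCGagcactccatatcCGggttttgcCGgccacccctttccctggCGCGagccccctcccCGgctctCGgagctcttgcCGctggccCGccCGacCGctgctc
IRX2 (chr5, 2751792 to 2751991, minus strand): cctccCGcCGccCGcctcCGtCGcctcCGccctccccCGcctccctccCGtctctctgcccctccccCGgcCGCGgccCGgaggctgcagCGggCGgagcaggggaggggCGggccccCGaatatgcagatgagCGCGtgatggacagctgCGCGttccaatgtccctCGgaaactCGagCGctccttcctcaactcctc
SPARC (chr5, 151066537 to 151066736, minus strand): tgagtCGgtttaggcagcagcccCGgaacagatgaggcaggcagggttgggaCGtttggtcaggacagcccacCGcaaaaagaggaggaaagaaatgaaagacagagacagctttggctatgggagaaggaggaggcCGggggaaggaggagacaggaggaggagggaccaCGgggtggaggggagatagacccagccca
IRX2 held 23 CG dinucleotides in its 200 bases, ADGRL3 18, NRK 17 and KHDRBS2 12, against 6 before SPARC. The stretch before SPARC overlaps an annotated exon of the long non-coding RNA CLMAT3, while no annotated exon overlaps the other 4.

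Total counts in H3K4me3 peaks were 4581712 and 8069529 in BrM2 and 4357121 and 9839629 in LM2 (replicates 1 and 2), and 3489607 and 6714331 in Par. The values given per library are normalized counts, in which each count is taken over its library's size factor. Same-numbered libraries of different lines deviated together, so that values with the replicate number as a block in the model are given as well. In peaks with a mean normalized count under 50, the share of counts was 3.29% and 2.89% in replicate 2 of BrM2 and LM2 and 1.90% and 1.47% in replicate 1. Claudin-low markers (10 of 10 with a promoter peak, VIM, CD44, AXL, ZEB1 and EGFR among them) were marked at 29.6 to 334 normalized counts per kb of peak, and 0 of them were called by DESeq2 (1 at an unadjusted p under 0.05 and 0 with edgeR). Defining genes of blood (PTPRC, CD3E, SPI1), neural (GFAP, RBFOX3, OLIG2), lung epithelial (SFTPB, SCGB1A1, AGER) and endothelial cells (CDH5, VWF) had no promoter peak. In all, 2 of 8 blood, 4 of 8 neural, 3 of 6 lung epithelial and 1 of 5 endothelial markers had one. Of these, 0 were called at the gene start without the block. SNAP25, of the neural list, was called higher in LM2 at another transcript start (DESeq2, adjusted p = 0.000223). With the block, 30.0% of the claudin-low and 33.3% of the lung epithelial markers with a promoter peak were called, beside 28.0% of all genes. The claudin-low markers of the labelled line thus all had a promoter peak, while many markers of the other cell types had none.

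BrM2 and LM2 differed at 717 of 22572 H3K4me3 peaks (3.18%), of which 463 were higher in BrM2 (2.05%) and 254 were higher in LM2 (1.13%, DESeq2, Benjamini-Hochberg adjusted p under 0.05, BrM2 minus LM2). At promoters, 248 peaks (2.22%) were called, 147 with more H3K4me3 in BrM2 (1.32%) and 101 with more in LM2 (0.905%). These peaks belonged to 263 genes (2.01% of genes with a promoter peak). Of these, 159 genes (1.22%) had the higher mark in BrM2 and 104 genes (0.796%) in LM2, and 0 genes had called promoter peaks in both directions. The share of called promoter peaks that were higher in BrM2 was 59.3% in this fit. Its Wilson 95% confidence interval (53.1 to 65.2%, counting error only) takes the peaks as independent. It covers neither the spread between libraries nor the choice of fit, and so it does not test the direction. In BrM2 the called promoters had a median absolute log2 fold change of 2.76, and in LM2 of 2.03, and neither value moved when the 2 and 3 peaks with 0 counts in both libraries of the other line were set to a floor of 3 counts over the group.

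With the replicate number as a block, the same contrast called 4771 peaks (22.0% of those tested) and 3130 promoter peaks (28.2%), which belonged to 3654 genes (28.0%). Of the 248 promoter peaks called without the block, 247 were called with it and 248 kept their direction. The balance of directions turned, since 34.6% of the promoter peaks called with the block were higher in BrM2, against 59.3% without it. Loess offsets, which remove a trend of the fold change with the level, gave 464 called promoter peaks with 49.6% higher in BrM2. The count of promoter peaks fell to 132 without BrM2 replicate 1, to 101 without BrM2 replicate 2, to 124 without LM2 replicate 1 and to 127 without LM2 replicate 2. The line with more called promoters thus depended on the fit.

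**Figure D1:**
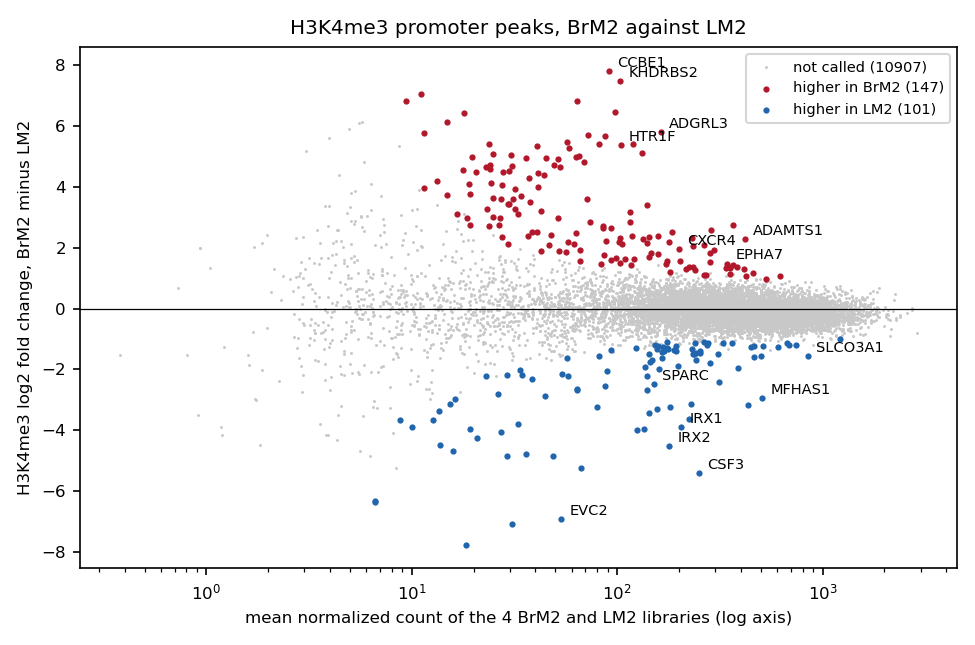
Promoter peaks plotted by the mean normalized count of the 4 BrM2 and LM2 libraries (x axis, log scale) and the H3K4me3 log2 fold change, BrM2 minus LM2 (y axis). The 147 red points (higher in BrM2) and 101 blue points (higher in LM2) are called promoter peaks, the grey points are not called, and the called points lie mostly at lower counts than the grey ones, with a median mean count of 66.0 and 156 against 351 over all promoter peaks.

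At the 12 promoters that stood highest in BrM2 over LM2, no LM2 library had a normalized count above 7.62, and no BrM2 library one below 83.0. CCBE1 encodes a secreted protein needed for the growth of lymphatic vessels. Its peak (chr18:57362582-57365015) had 179 and 183 in BrM2 against 1.52 and 0.529 in LM2. LM2 held only 1 read in each library there, and the ratio of BrM2 to LM2 was 231 (95% counting interval 63.7 to 1916, adjusted p = 6.84e-10). At KHDRBS2, which encodes an RNA-binding splicing regulator, the peak (chr6:62995415-62996681) had 256 and 154 in BrM2 against 0 and 1.59 in LM2. NRK, which encodes a kinase of the germinal center kinase family, had 111 and 144 in BrM2 against 0 and 1.59 in LM2 (chrX:105065347-105067127). For both, LM2 held 3 reads over its libraries, and the ratios were 159 (counting interval 53.9 to 772) and 113 (38.3 to 551).

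ADGRL3 is latrophilin 3, an adhesion receptor that binds partners across synapses. The ADGRL3 peak (chr4:62065814-62067714) had 341 and 301 in BrM2 against 4.57 and 6.35 in LM2, a log2 fold change of 5.80 ± 0.54 (SE, adjusted p = 8.21e-23). HTR1F encodes a serotonin receptor, and its peak (chr3:87841349-87842639) had 248 and 159 in BrM2 against 3.05 and 5.82 in LM2, a log2 fold change of 5.37 ± 0.62 (adjusted p = 4.90e-15). Both lay in regions with few other marked peaks, with 0 and 4 other peaks of a mean count of at least 50 within 2.5 Mb on each side. TSPOAP1 encodes a scaffold protein that binds RIM proteins. The peak assigned to it by distance (chr17:56407626-56408948) lay 1470 bp from its start and inside no protein-coding gene. This peak had 152 and 236 in BrM2 against 0 and 3.18 in LM2 (log2 fold change 6.45 ± 0.78). DAPK1, a kinase that promotes cell death, had 316 and 151 in BrM2 against 7.62 and 4.24 in LM2 (chr9:90112196-90113983, 5.42 ± 0.63). In all 4 genes the lower BrM2 library was far above the higher LM2 library.

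The other 5 of the 12 were PLPPR1, which encodes a membrane protein of neurite outgrowth, CYP7B1, an oxysterol hydroxylase, PREX2, an activator of Rac, and the zinc finger genes ZNF300 and ZNF257. Their log2 fold changes ran from 5.28 (PREX2) to 5.72 (CYP7B1). BrM2 libraries held 83.0 to 202 at these 5 peaks and LM2 libraries 0 to 4.76. All 12 promoters were called without each of the 6 libraries in turn. Being called with the replicate block and having no overlap of the lines were conditions for naming them.

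**Figure D2:**
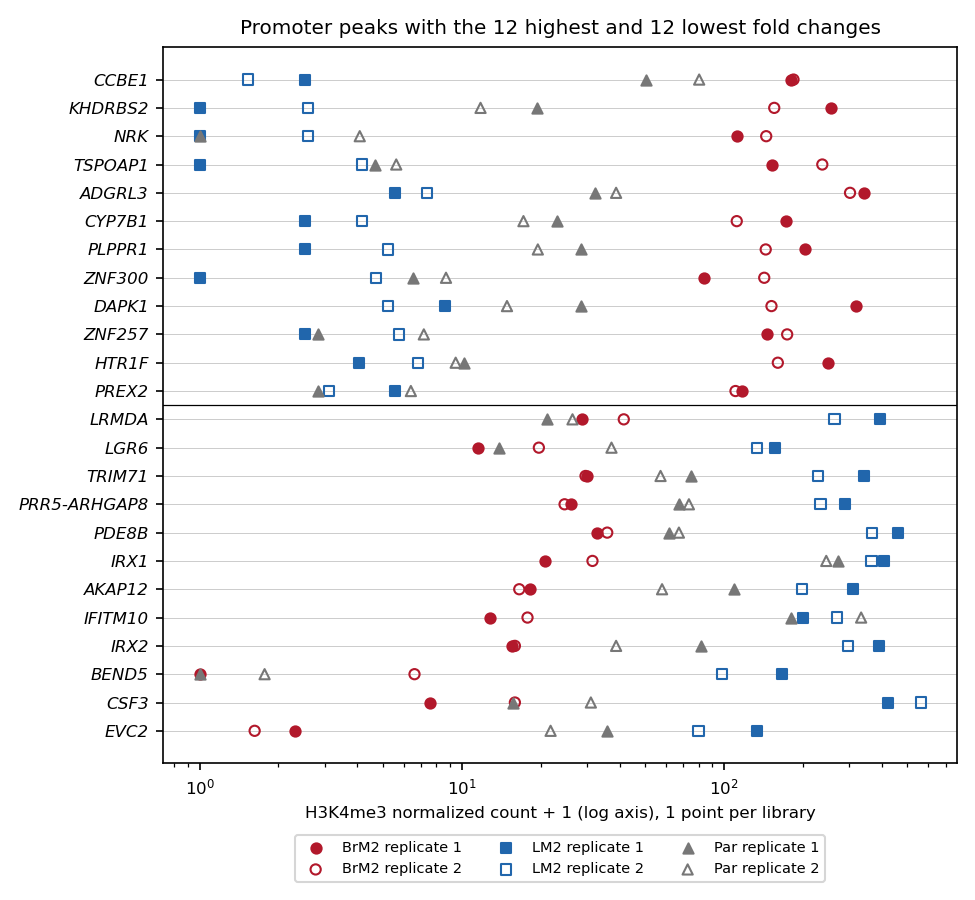
Normalized H3K4me3 count plus 1 (x axis, log scale) of each library at the promoter peaks with the 12 highest and 12 lowest log2 fold changes among those that met the naming conditions, BrM2 in red circles, LM2 in blue squares and Par in grey triangles, with replicate 1 filled and replicate 2 open. Above the line the 2 red points of every gene lie to the right of its 2 blue points, and below the line the order is turned, while the grey Par points lie near LM2 at NRK, ZNF257, IRX1 and IFITM10 and near BrM2 at BEND5.

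At the 12 promoters that stood highest in LM2 over BrM2, no BrM2 library had a normalized count above 40.5, and no LM2 library one below 78.9. CSF3 encodes granulocyte colony-stimulating factor, which drives the production of neutrophils. Its broad peak (chr17:38171036-38176452) had 419 and 562 in LM2 against 6.59 and 14.9 in BrM2, a log2 fold change of -5.41 ± 0.49 (adjusted p = 5.50e-24). IRX2 and IRX1 encode homeodomain transcription factors that pattern embryonic tissues and stand next to each other on chromosome 5. At IRX2 (chr5:2750545-2752943) the mark was 390.3 and 296 in LM2 against 14.5 and 14.9 in BrM2, a log2 fold change of -4.54 ± 0.49. At IRX1 (chr5:3594909-3598164) it was 407 and 364 in LM2 against 19.8 and 30.5 in BrM2, a log2 fold change of -3.89 ± 0.39. IRX5, a member of the second Iroquois cluster on chromosome 16, was called in the same direction at a far higher level, with 1831 and 1426 in LM2 against 788 and 819.7 in BrM2 (-1.02 ± 0.31, adjusted p = 0.0321, and 0.172 with edgeR), and its call ended without any 1 library (adjusted p up to 0.606). The other 19 and 12 marked peaks within 2.5 Mb of IRX2 and IRX1 had a median log2 fold change of -0.19 and -0.24.

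AKAP12, a scaffold that anchors protein kinase A, had 308 and 197 in LM2 against 17.1 and 15.6 in BrM2 (chr6:151561174-151562353, log2 fold change -3.95 ± 0.49). PDE8B, a phosphodiesterase that degrades cyclic AMP, had 459 and 365 in LM2 against 31.6 and 34.9 in BrM2 (chr5:76505748-76507308, -3.62 ± 0.39). LGR6, a receptor for R-spondins and a stem cell marker of skin, had 156 and 133 in LM2 against 10.5 and 18.7 in BrM2 (chr1:202162582-202163655, -3.25 ± 0.55). Of these 3 genes, the libraries of 1 line differed most from each other at LGR6 in BrM2. EVC2, a component of the primary cilium that acts in hedgehog signaling, had 133 and 78.9 in LM2 against 1.32 and 0.622 in BrM2 (chr4:5709657-5710517). BrM2 held 1 read in each library at EVC2, and the ratio of LM2 to BrM2 was 109.7 (95% counting interval 30.0 to 911, adjusted p = 3.53e-07). IFITM10, TRIM71, LRMDA, BEND5 and the read-through gene PRR5-ARHGAP8 completed the 12, with log2 fold changes from -5.23 (BEND5) to -3.23 (LRMDA). BEND5 had 0 and 5.60 in BrM2, and its adjusted p ran from 3.23e-09 to 1.00 when 1 library was left out, being above the threshold without LM2 replicate 1, LM2 replicate 2 or Par replicate 2. Each of the other 11 was called without each library in turn.

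Promoters with the highest mark per length (mean normalized count per kb of peak) and an absolute log2 fold change of at least 1 were taken as a second group. In BrM2 the strongest were ZNF512B, FNDC4 with GCKR, L3MBTL4, EPHA6, RPL31 and ARL10, at 134 to 201 per kb. L3MBTL4, which encodes a protein with histone-binding MBT domains, had 505 and 377 in BrM2 against 108 and 138 in LM2 (chr18:6413833-6415417, log2 fold change 1.83 ± 0.36). RPL31, a ribosomal protein of the large subunit, had 614 and 659.8 in BrM2 against 261 and 303 in LM2 (chr2:101618145-101621541, 1.17 ± 0.31). In LM2 the strongest were SLCO3A1, JADE3, GJA3, SLC22A23, MFHAS1 and GGACT, at 212 to 310.3 per kb. SLCO3A1, an organic anion transporter, had 1586 and 938 in LM2 against 463 and 391 in BrM2 (chr15:92395398-92398118, -1.56 ± 0.36). MFHAS1 had 1082 and 712 in LM2 against 125 and 108 in BrM2 (chr8:8749389-8751754, -2.94 ± 0.36). MFHAS1 was the only 1 of these 12 that was called without each library in turn. The call ended for ZNF512B without any 1 BrM2 or LM2 library (adjusted p up to 0.163), FNDC4 without any 1 library (adjusted p up to 0.467), L3MBTL4 without BrM2 replicate 1 (adjusted p up to 0.0589), EPHA6 without BrM2 replicate 1, LM2 replicate 1 or LM2 replicate 2 (adjusted p up to 0.381), RPL31 without any 1 BrM2 or LM2 library (adjusted p up to 0.299) and ARL10 without BrM2 replicate 1, LM2 replicate 1 or LM2 replicate 2 (adjusted p up to 0.419). In LM2 it ended for SLCO3A1 without BrM2 replicate 2 or LM2 replicate 1 (adjusted p up to 0.240), JADE3 without BrM2 replicate 1, BrM2 replicate 2 or LM2 replicate 1 (adjusted p up to 0.932), GJA3 without any 1 library (adjusted p up to 0.906), SLC22A23 without any 1 BrM2 or LM2 library (adjusted p up to 0.260) and GGACT without BrM2 replicate 1, BrM2 replicate 2 or LM2 replicate 1 (adjusted p up to 0.799). With chromosome medians removed, JADE3, GJA3 and GGACT were not called either (adjusted p = 0.0505, 0.366 and 0.340), and with edgeR neither were JADE3, GJA3 and SLC22A23 (0.119, 0.0850 and 0.0501). Marked peaks around SLCO3A1, JADE3, GJA3, GGACT and MFHAS1 leaned the same way, with median log2 fold changes of -0.82, -0.79, -0.54, -0.61 and -1.26 over the other peaks within 2.5 Mb, and the part of this lean in the results was not tested.

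Genes were then grouped in lists by role. Over the 19 lists plotted by role, between 0 and 18.5% of the members with a promoter peak were called, beside 2.01% of all genes with a promoter peak. All lists were chosen with earlier results of these data known, so that a share above 2.01% is no evidence for a list. The lists of lung and of brain metastasis genes come from earlier work. Most of them were found in sub-populations of the same parental line, so that the lists are not independent evidence of a direction. Of the lung metastasis genes, 13 of 18 had a promoter peak, 2 were called higher in LM2 and 0 higher in BrM2. SPARC, a secreted matrix glycoprotein, had 218 and 293 in LM2 against 39.5 and 50.4 in BrM2 (chr5:151064325-151066794), and Par was lower than both, with 1.84 and 7.71 in Par. The log2 fold change was -2.50 ± 0.44 (adjusted p = 2.02e-06), and it was called without each library in turn. EREG, the EGF receptor ligand epiregulin, had 244 and 296 in LM2 against 94.9 and 136 in BrM2 (-1.22 ± 0.37), and its adjusted p was 0.0567 to 0.454 without any 1 library and 0.0776 with chromosome medians removed. ANGPTL4, a secreted factor that loosens vessel walls, had a log2 fold change of -1.29 ± 0.43 and was not called (adjusted p = 0.0747). PTGS2, the prostaglandin synthase COX-2, had -0.70 ± 0.37 and was not called either (adjusted p = 0.484). The median log2 fold change of the lung list was -0.26, against -0.07 over all genes with a promoter peak. Of the brain metastasis genes, 18 of 23 had a promoter peak, and 1 was called. That gene was CSF3, which was higher in LM2. None of the other 17, among them the adhesion genes L1CAM and PCDH7, the gap junction gene GJA1 and the protease inhibitor gene SERPINI1, was called in DESeq2 without the block, and their log2 fold changes ran from -1.29 (ANGPTL4) to 0.24 (GJA1). With the replicate block, 0 higher in BrM2 and 5 higher in LM2 were called in the lung list, and 0 higher in BrM2 and 3 higher in LM2 in the brain list (background 28.0%).

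Guidance molecules, synaptic genes, ion channels and adhesion molecules, with neuronal genes among them, were described by 6 lists. Of the axon guidance receptors, 28 of 35 had a promoter peak and 2 were called, both higher in BrM2. EPHA6 and EPHA7 encode Eph receptors that bind membrane-bound ephrins. EPHA7 had 587 and 426 in BrM2 against 162 and 199.6 in LM2 (1.48 ± 0.35, adjusted p = 0.00153), and EPHA6 had 601 and 415 in BrM2 against 221 and 185 in LM2 (1.32 ± 0.35, adjusted p = 0.00776). Of the guidance ligands, 31 of 40 had a promoter peak and 2 were called, both higher in LM2. They were the semaphorin genes SEMA5A, with 494 and 409 in LM2 against 225 and 184 in BrM2, and SEMA6B, with 381 and 376 in LM2 against 145 and 201 in BrM2. Their adjusted p was 0.0234 and 0.0318. With 1 library left out, the call ended for EPHA7 without BrM2 replicate 1 or LM2 replicate 1 (adjusted p up to 0.205), EPHA6 without BrM2 replicate 1, LM2 replicate 1 or LM2 replicate 2 (adjusted p up to 0.381), SEMA5A without any 1 library (adjusted p up to 0.662) and SEMA6B without any 1 library (adjusted p up to 0.458). Over all members, the median log2 fold change was -0.18 for receptors and -0.29 for ligands.

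Of the synaptic genes, 22 of 53 had a promoter peak, 2 were called higher in BrM2 and 1 higher in LM2. LRRTM1, a postsynaptic leucine-rich repeat protein that lies inside an intron of CTNNA2, had 38.2 and 55.4 in BrM2 against 0 and 2.65 in LM2 (4.72 ± 1.00). CADM2, a synaptic cell adhesion molecule, had 298 and 379.7 in BrM2 against 114 and 163 in LM2 (1.28 ± 0.37), while its family member CADM1 went the other way with 141 and 104 in BrM2 against 351 and 337 in LM2 (-1.50 ± 0.35). The list plotted as classical cadherins also holds other cadherins, such as the desmosomal DSG1 and DSC3. Of its members, 10 of 28 had a promoter peak. Only CDH12 was called in DESeq2 without the block, from 25.0 and 26.1 in BrM2 against 0 and 2.12 in LM2 (4.20 ± 1.23, adjusted p = 0.0254). CDH10, which lies near CDH12 on chromosome 5, had 17.1 and 16.8 in BrM2 against 0 and 0.529 in LM2 and was not called (adjusted p = 0.0521). Protocadherins outside the cluster (11 of 18 with a promoter peak) held 0 calls by DESeq2 without the block, 2 at an unadjusted p under 0.05 and 0 with edgeR. Of the ion channels, 29 of 54 had a promoter peak, and the sodium channel gene SCN8A was called higher in BrM2 (3.74 ± 0.94) and the potassium channel gene KCNJ8 higher in LM2 (-1.63 ± 0.49, adjusted p = 0.0343, and 0.0747 with edgeR). The call ended for LRRTM1 without BrM2 replicate 2 or LM2 replicate 2 (adjusted p up to 0.170), CADM2 without any 1 BrM2 or LM2 library (adjusted p up to 0.675), CADM1 without BrM2 replicate 2, LM2 replicate 1 or LM2 replicate 2 (adjusted p up to 0.269), CDH12 without BrM2 replicate 1, LM2 replicate 1 or LM2 replicate 2 (adjusted p up to 0.843), SCN8A without BrM2 replicate 1, BrM2 replicate 2 or LM2 replicate 2 (adjusted p up to 0.319) and KCNJ8 without any 1 library (adjusted p up to 0.732). CDH12 was not called with chromosome medians removed either (adjusted p = 0.0520). With the block, called genes were 5 higher in BrM2 and 9 higher in LM2 for guidance receptors, 3 higher in BrM2 and 10 higher in LM2 for ligands, 3 higher in BrM2 and 6 higher in LM2 for synaptic genes, 4 higher in BrM2 and 0 higher in LM2 for cadherins, 2 higher in BrM2 and 3 higher in LM2 for protocadherins and 2 higher in BrM2 and 6 higher in LM2 for ion channels. All of these shares are to be read beside the 28.0% of all genes called with the block.

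Matrix genes were called in both directions. Of the collagens and laminins, 29 of 45 had a promoter peak, 3 were called higher in BrM2 and 1 higher in LM2. COL8A1, a collagen of vessel walls and basement membranes, had 556 and 518 in BrM2 against 148 and 246 in LM2 (1.43 ± 0.36). LAMA1, a laminin of early basement membranes, had 40.9 and 31.7 in BrM2 against 0 and 3.18 in LM2 (4.11 ± 0.99), and COL11A1, a fibrillar collagen, had 44.8 and 70.3 in BrM2 against 4.57 and 6.88 in LM2 (3.27 ± 0.73). COL7A1, which forms anchoring fibrils, had 96.1 and 193 in LM2 against 17.1 and 51.7 in BrM2 (-2.04 ± 0.57, adjusted p = 0.0150, and 0.0885 with edgeR). When 1 library was left out, the call ended for COL8A1 without BrM2 replicate 1, BrM2 replicate 2 or LM2 replicate 1 (adjusted p up to 0.247), LAMA1 without BrM2 replicate 1, BrM2 replicate 2 or LM2 replicate 2 (adjusted p up to 0.190), COL11A1 without BrM2 replicate 2 or LM2 replicate 2 (adjusted p up to 0.394) and COL7A1 without BrM2 replicate 1 or LM2 replicate 2 (adjusted p up to 0.473). The median log2 fold change of the list was -0.38, below zero although 3 of the 4 calls were above it. With the block, 5 higher in BrM2 and 14 higher in LM2 were called (65.5%, beside 28.0% of all genes with a promoter peak).

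Of the matricellular proteins and matrix enzymes, 27 of 53 had a promoter peak, 2 were called higher in BrM2 and 3 higher in LM2. ADAMTS1 and ADAMTS5 encode proteases that cut proteoglycans and lie near each other on chromosome 21. ADAMTS1 had 820.0 and 566 in BrM2 against 128 and 156 in LM2 (2.28 ± 0.35, adjusted p = 2.41e-08), and ADAMTS5 had 39.5 and 57.3 in BrM2 against 0 and 2.12 in LM2 (5.07 ± 1.06, adjusted p = 0.000180). Besides SPARC, the membrane-type metalloproteinase gene MMP16 (-1.35 ± 0.38) and CCN4, a secreted Wnt target (-3.67 ± 1.14, adjusted p = 0.0444), were called higher in LM2. CCN4 was weakly marked, with 0 and 3.11 in BrM2 against 22.9 and 24.9 in LM2. As for the libraries, the call ended for ADAMTS5 without BrM2 replicate 2 or LM2 replicate 2 (adjusted p up to 0.166), MMP16 without BrM2 replicate 1, BrM2 replicate 2 or LM2 replicate 2 (adjusted p up to 0.406) and CCN4 without any 1 library (adjusted p up to 0.443). With chromosome medians removed, MMP16 and CCN4 were not called (adjusted p = 0.149 for CCN4). With the block, 5 higher in BrM2 and 8 higher in LM2 were called (48.1%, beside 28.0% of all genes with a promoter peak).

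Of the integrins, 14 of 25 had a promoter peak and ITGB2 alone was called by DESeq2 without the block, the beta-2 subunit of leukocyte integrins, with 343 and 260.2 in BrM2 against 99.1 and 103 in LM2 (chr21:46350995-46353157, 1.57 ± 0.36). Of the angiogenesis genes, 29 of 42 had a promoter peak and 2 were called, both higher in BrM2. These were CCBE1 and FLT1, the VEGF receptor 1, which had 87.0 and 39.8 in BrM2 against 3.05 and 5.82 in LM2 (3.71 ± 0.78). CCBE1 was called without each library in turn, as given above, while the calls of ITGB2 and FLT1 did not hold in every such fit. The call ended for ITGB2 without BrM2 replicate 1, LM2 replicate 1 or LM2 replicate 2 (adjusted p up to 0.183) and FLT1 without BrM2 replicate 1 or LM2 replicate 2 (adjusted p up to 0.304). With the block, 1 higher in BrM2 and 3 higher in LM2 were called among integrins (28.6%). Among angiogenesis genes, 4 were called higher in BrM2 and 6 higher in LM2 (34.5%). Both shares stand beside 28.0% of all genes with a promoter peak.

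Chemokine, interferon and growth factor genes held 5 calls. Of the chemokines and cytokines, 20 of 37 had a promoter peak. CXCR4, the receptor for CXCL12, was called higher in BrM2, with 369 and 265 in BrM2 against 73.2 and 88.4 in LM2 (chr2:136873729-136876027, 1.96 ± 0.38, adjusted p = 4.57e-05), and CSF3 was called higher in LM2. Among the libraries, only leaving out BrM2 replicate 1 ended the call of CXCR4 (adjusted p = 0.0589). Of the interferon and MHC class I genes, 53 of 58 had a promoter peak and 2 were called, both higher in BrM2. IFIT2, an interferon-induced RNA-binding protein, had 67.2 and 132 in BrM2 against 1.52 and 4.24 in LM2 (4.92 ± 0.77, adjusted p = 5.83e-08). Its neighbours IFIT3 and IFIT1 had 1.03 ± 0.43 and 0.33 ± 0.49 and were not called. BST2, or tetherin, shares its peak with MVB12A and had 80.4 and 117 in BrM2 against 24.4 and 40.8 in LM2 (1.56 ± 0.48), and it was not called with edgeR (adjusted p = 0.0817), with chromosome medians removed (0.0630) or without any 1 library (up to 0.885). The median log2 fold change of this list was 0.20. Of the TGF-beta and BMP genes (42 of 49 with a promoter peak), 0 were called by DESeq2 without the block (5 at an unadjusted p under 0.05 and 0 with edgeR), and of the EGF receptor family and its ligands (11 of 15) EREG alone. With the block, called genes were 2 higher in BrM2 and 2 higher in LM2 for chemokines and cytokines. Interferon and MHC genes had 9 higher in BrM2 and 1 higher in LM2 (18.9%). TGF-beta and BMP genes had 2 higher in BrM2 and 8 higher in LM2 (23.8%). The EGF receptor list had 1 higher in BrM2 and 2 higher in LM2 (27.3%). In each of these lists, chemokines and cytokines included, the share called was below the 28.0% of all genes with a promoter peak.

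Lineage transcription factors gave 6 calls among 69 of 128 genes with a promoter peak, 5 higher in LM2 and 1 higher in BrM2. Besides IRX1, IRX2 and IRX5, EBF2, a regulator of fat and neural cells, had 64.0 and 48.7 in LM2 against 0 and 3.11 in BrM2 (-4.83 ± 0.93), and KLF14, a Krüppel-like factor, had 18.3 and 34.9 in LM2 against 0 and 1.87 in BrM2. BrM2 held 3 reads there, and the ratio of LM2 to BrM2 was 24.2 (95% counting interval 7.97 to 119.7). KLF14 stood far higher in the parental line, with 290.3 and 181 in Par. SPDEF, an ETS factor of luminal epithelium, was called higher in BrM2, with 36.9 and 73.4 in BrM2 against 1.52 and 7.41 in LM2 (3.43 ± 0.79). HOX genes (13 of 39 with a promoter peak) held 0 calls by DESeq2 without the block (0 at an unadjusted p under 0.05 and 0 with edgeR), with a median log2 fold change of 0.33. Of the epithelial genes, 22 of 31 had a promoter peak and 3 were called. CLDN7, a tight junction claudin, had 471 and 371 in BrM2 against 142 and 147 in LM2 (1.54 ± 0.34), and ESRP2, an epithelial splicing regulator, had 372 and 273 in BrM2 against 125 and 126 in LM2 (1.36 ± 0.35). Matriptase, encoded by ST14, was higher in LM2 (-1.37 ± 0.41, adjusted p = 0.0324, and 0.0617 with chromosome medians removed). Among luminal breast markers (7 of 10 with a promoter peak), SPDEF and the progesterone receptor gene PGR were called higher in BrM2, PGR with 113 and 103 in BrM2 against 7.62 and 27.5 in LM2 (2.50 ± 0.54). FOXA1, GATA3, KRT8, CDH1 and EPCAM were not called, and ESR1 had no promoter peak. IRX5 and PGR are named after their values were seen. Of the genes in these lists, the call ended for IRX5 without any 1 library (adjusted p up to 0.606), KLF14 without BrM2 replicate 2 (adjusted p up to 0.106), SPDEF without BrM2 replicate 2 or LM2 replicate 2 (adjusted p up to 0.331), PGR without BrM2 replicate 1 or BrM2 replicate 2 (adjusted p up to 0.0641), CLDN7 without BrM2 replicate 1 (adjusted p up to 0.108), ESRP2 without any 1 BrM2 or LM2 library (adjusted p up to 0.319) and ST14 without any 1 library (adjusted p up to 0.513). With the block, called genes were 7 higher in BrM2 and 25 higher in LM2 for transcription factors (46.4%). HOX genes had 1 higher in BrM2 and 0 higher in LM2 (7.69%). Epithelial genes had 5 higher in BrM2 and 4 higher in LM2 (40.9%). Luminal markers had 4 higher in BrM2 and 0 higher in LM2 (57.1%). These shares stand beside 28.0% of all genes with a promoter peak.

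**Figure D3:**
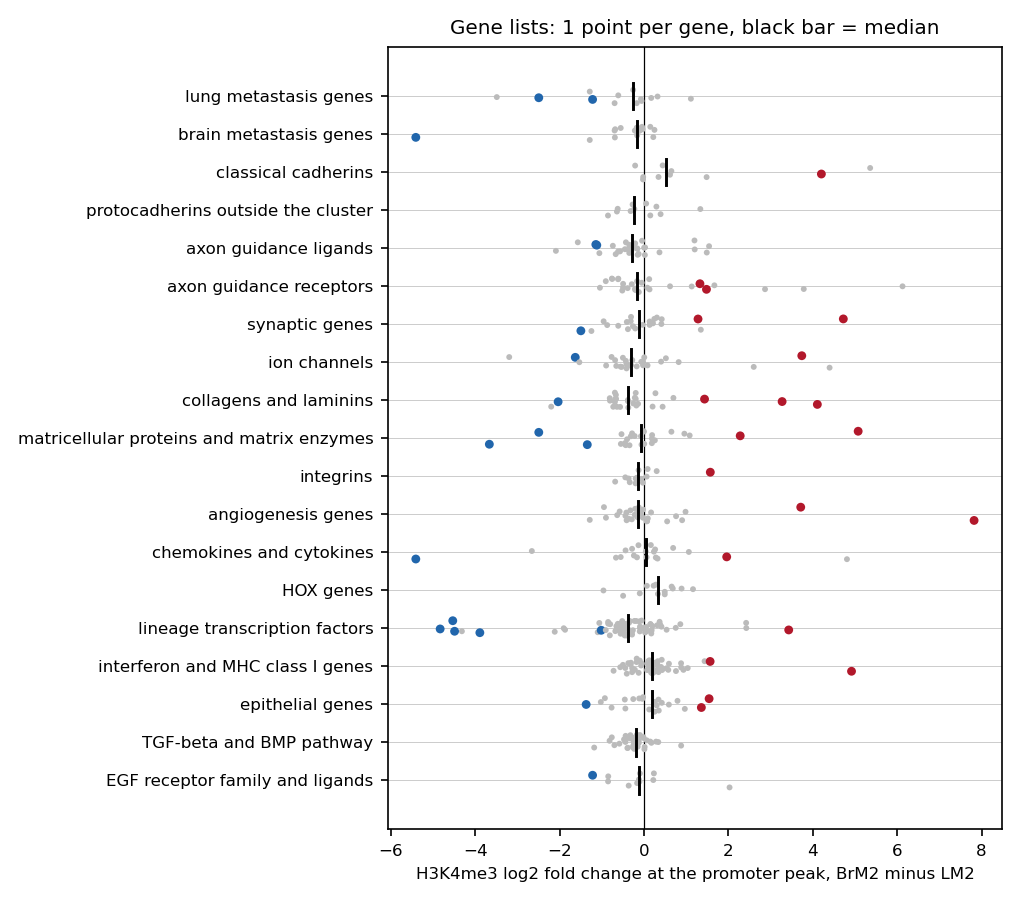
H3K4me3 log2 fold change, BrM2 minus LM2 (x axis), of each list member with a promoter peak (1 point per gene, jittered in height), grouped by list (y axis), with genes called higher in BrM2 in red, genes called higher in LM2 in blue, uncalled genes in grey and the list median as a black bar. The medians of these 19 lists lie between -0.38 and 0.53, and each list holds between 0 and 6 called genes.

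SPARC, EMP2, APOBEC3G, RIMS2, CDH18 and PLCB1 are genes shown as examples in the study. There they stand for changes against Par, at promoters for SPARC, CDH18 and PLCB1 and at enhancers for EMP2, RIMS2 and APOBEC3G. PLCB1 and APOBEC3G were shown as changed alike in both sub-populations. The values here, for BrM2 against LM2 at promoters, thus do not test those examples. Of these 6 genes, 4 had a promoter peak by the gene start, and only SPARC was called in DESeq2 without the block. EMP2, an epithelial membrane protein, had 413 and 169 in BrM2 against 519.9 and 294 in LM2 (-0.49 ± 0.46, adjusted p = 0.875, and 0.00753 with the replicate block). The lines overlapped at EMP2, whose same-numbered libraries were both high or both low. At another EMP2 start (chr16:10652705-10653042) H3K4me3 was weak, with 0 and 0.622 in BrM2 against 1.52 and 11.1 in LM2 (adjusted p = 0.462), while the overlapping H3K27ac peak had 2.92 and 7.71 in BrM2 against 63.4 and 48.3 in LM2 (H3K27ac log2 fold change -3.56 ± 0.75, adjusted p = 0.000423). APOBEC3G, a cytidine deaminase, had 40.9 and 71.0 in BrM2 against 57.9 and 87.3 in LM2 (-0.38 ± 0.52, adjusted p = 0.949). RIMS2, an organizer of neurotransmitter release, had at most 6.10 in any BrM2 or LM2 library at the peak of its gene start, so that no difference was detectable at this depth. CDH18 and PLCB1 had peaks at other transcript starts only. CDH18, a cadherin of the nervous system, had 21.1 and 43.6 in BrM2 against 3.05 and 7.41 in LM2 (log2 fold change 2.54 ± 0.91, adjusted p = 0.118, and 0.0138 with the block), with 0 and 0.771 in Par. PLCB1, a phospholipase C, had 206 and 162 in BrM2 against 396 and 265 in LM2 at its strongest peak (-0.84 ± 0.38, adjusted p = 0.325, and 0.00122 with the block).

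Gene starts miss promoters that lie inside an annotated gene, and 81 called peaks lay at another transcript start of 77 protein-coding genes. Of these genes, 43 had no peak at the gene start and 30 had one that was not called. The genes named here were chosen after their values were seen. MMP2, the secreted gelatinase that is also on the lung metastasis list, had 107 and 109.6 in LM2 against 1.32 and 9.96 in BrM2 at chr16:55513006-55514450 (-4.08 ± 0.70, adjusted p = 1.13e-06), and 0 and 5.39 in Par. MMP2 was not called without LM2 replicate 1 or LM2 replicate 2 (adjusted p up to 0.887). ITGB2 had 2 further called peaks, and the stronger (chr21:46333633-46336930) had 423 and 466 in BrM2 against 13.7 and 22.8 in LM2 (4.53 ± 0.43, adjusted p = 1.12e-22).

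Further genes with neuronal roles had called peaks at such starts in both directions. NRXN3, a presynaptic neurexin, had 173 and 206 in BrM2 against 1.52 and 5.82 in LM2 (5.42 ± 0.63). KIRREL3, a synaptic adhesion molecule, had 150.3 and 253 in BrM2 against 1.52 and 6.88 in LM2 (5.33 ± 0.64), and CTNNA2, the neuronal alpha-catenin, had 141 and 140.1 in BrM2 against 0 and 2.65 in LM2 (6.24 ± 0.82). KCNN2, a calcium-activated potassium channel, had 598 and 457 in BrM2 against 16.8 and 20.6 in LM2 (4.79 ± 0.45). SNAP25, a SNARE protein of synaptic vesicle release, went the other way, with 57.9 and 70.9 in LM2 against 5.27 and 9.34 in BrM2 (-3.08 ± 0.65), as did STMN3, a tubulin-binding protein of neurons, with 120.5 and 104 in LM2 against 9.23 and 18.1 in BrM2 (-2.96 ± 0.49). EHF, an epithelial ETS factor, had 141 and 203 in BrM2 against 15.2 and 41.3 in LM2 (2.53 ± 0.49) and 143 and 247 in Par. Of the genes in this paragraph, the call ended for SNAP25 without LM2 replicate 2 (adjusted p up to 0.0938). With any protein-coding transcript start, 327 peaks and 335 genes were called in place of 248 and 263.

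The level of the parental line did not enter the contrast. At the 147 promoters higher in BrM2, Par was nearer LM2 at 102 and nearer BrM2 at 45 (on the log2 scale of the normalized count plus 1). At the 101 promoters higher in LM2, Par was nearer BrM2 at 44 and nearer LM2 at 57. Over all 11155 promoter peaks, Par was nearer LM2 at 5902. NRK had 0 and 3.08 in Par, so that BrM2 stood apart from both other lines, and so did IFIT2, with 3.67 and 9.25 in Par. At CSF3 the parental line had 14.7 and 30.1 in Par and LM2 stood apart, while at SPARC, as given above, Par lay far below both sub-populations. IFITM10 had 178 and 332 in Par and IRX1 272 and 244 in Par, so that at these promoters BrM2 was the line that stood apart. CCBE1, with 49.6 and 79.4 in Par, lay between the lines.

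H3K27ac, the acetylation of histone H3 at lysine 27 that active promoters and enhancers carry, was measured in other libraries of these lines and was not used to choose the promoters. Over all H3K27ac peaks, 1366 of 46519 tested differed between BrM2 and LM2 (2.94%), and of those paired with a promoter peak, 127 of 10352 (1.23%). Of the 147 promoters higher in BrM2, 100 overlapped an H3K27ac peak, and at 98 of these H3K27ac was higher in BrM2 in sign, with a median log2 fold change of 1.37. Of the 80 with an adjusted p, 24 were called, all of them higher in BrM2. Of the 101 promoters higher in LM2, 90 overlapped an H3K27ac peak, 84 had the sign of LM2, and 24 of the 76 with an adjusted p were called, all of them higher in LM2, with a median log2 fold change of -1.15 over the 90. Over all promoter peaks the median was 0.06. With the block, 39 of the 100 and 31 of the 90 were called in the direction of H3K4me3. That fit also called more H3K27ac peaks in all, 2574 of 41696 tested. Its share over peaks paired with a promoter peak was not counted. An overlapping H3K27ac peak was found at 95.3% of all promoter peaks.

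NRK had H3K27ac counts of 52.6 and 69.4 in BrM2 against 0 and 0.986 in LM2 (adjusted p = 0.000107), and HTR1F of 46.8 and 34.7 in BrM2 against 2.80 and 1.97 in LM2 (4.06 ± 0.84, adjusted p = 0.000277). At ADAMTS1 the H3K27ac log2 fold change was 3.11 ± 0.54 (adjusted p = 5.30e-06). Both marks were thus higher in BrM2 at these 3 genes. IRX2 had 0.975 and 0 in BrM2 against 30.3 and 59.1 in LM2 (adjusted p = 0.00315), and LRMDA 10.7 and 21.2 in BrM2 against 125 and 120.2 in LM2 (-3.03 ± 0.50). CSF3 had 382 and 449 in BrM2 against 1061 and 1129.6 in LM2 (-1.40 ± 0.30, adjusted p = 0.000402). The H3K27ac peak over CSF3 spans 15289 bp against 5417 bp of the H3K4me3 peak, so that these counts include sequence beyond the promoter. SPARC had 118 and 166 in BrM2 against 187 and 256 in LM2, and its H3K27ac was not called (-0.65 ± 0.33, adjusted p = 0.367, over 6089 bp). KHDRBS2, PLPPR1, ZNF257, PREX2 and BEND5 had no overlapping H3K27ac peak.

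**Figure D4:**
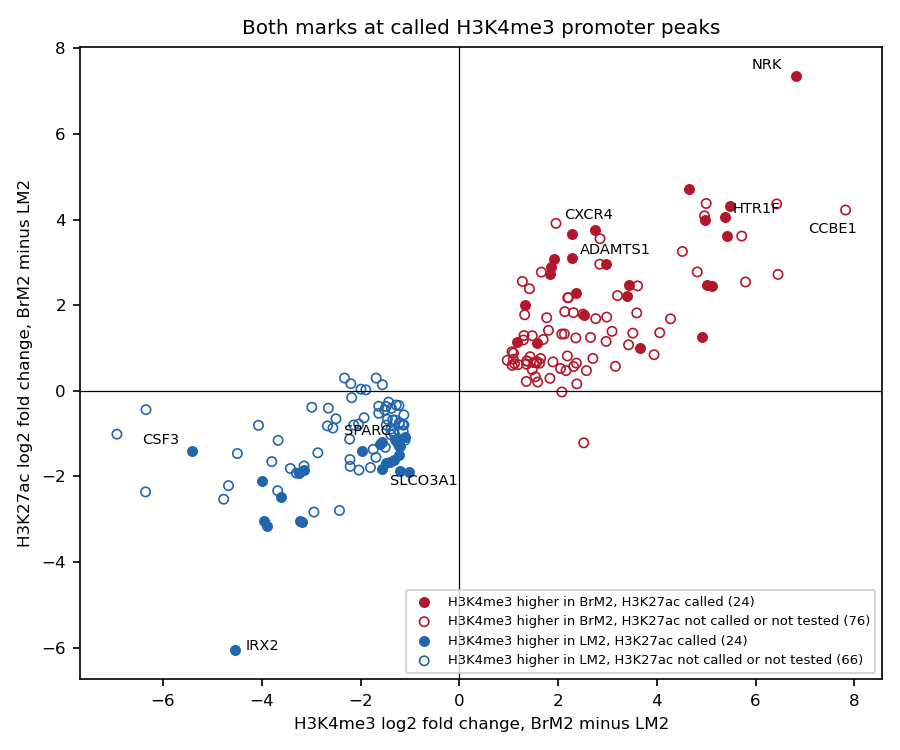
H3K4me3 log2 fold change (x axis) against the H3K27ac log2 fold change of the overlapping peak (y axis), both BrM2 minus LM2, at the called H3K4me3 promoter peaks that overlap an H3K27ac peak, with filled points where H3K27ac was also called. Of the 100 red points (H3K4me3 higher in BrM2) 98 lie above zero and of the 90 blue points (higher in LM2) 84 lie below it, and all 48 filled points lie in the quadrants where both marks have the same sign.

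Some called promoters lay in stretches where the other peaks leaned the same way. One stretch was the first 15 Mb of chromosome 8, chosen after medians of 5 Mb windows were seen. All 34 H3K4me3 peaks there with a mean count of at least 50 had a negative log2 fold change, from -3.18 to -0.04, with a median of -1.25, and all 50 H3K27ac peaks did so with a median of -1.21. Of its 21 promoter peaks, 13 were called, all higher in LM2, which is 13 of the 101 promoters higher in LM2. Par was nearer LM2 at 30 of the 34 peaks. Within the stretch, PRAG1 (87.0 in BrM2 and 784 in LM2 on average, log2 fold change -3.18), CLDN23 (-3.15) and MFHAS1 (-2.94) lay well below the other promoters, such as TNKS (-1.51) and MSRA (-1.22). The counts were not corrected for input.

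Chromosomes 13 and 9 had a median log2 fold change of -0.59 and -0.52 over marked H3K4me3 peaks, chromosome 15 of -0.34 and chromosome 18 of 0.21. H3K27ac peaks outside H3K4me3 peaks had medians of -0.49, -0.34, -0.18 and 0.48 on the same chromosomes. Chromosome 18 held 8 promoters higher in BrM2, CCBE1, LAMA1, TCF4 and L3MBTL4 among them, and 0 higher in LM2. In 5 Mb windows, 225 called promoter peaks lay in a window of at least 8 marked peaks. Of these, 34 were in a window whose median was at least 0.5 in the same direction. Of the 499 windows with at least 8 marked peaks, 42 had an absolute median of at least 0.5. The share over all promoter peaks was not counted. With the chromosome medians removed, 235 promoter peaks were called, of which 210 were among the 248.

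Base composition and length, which the comparison did not use, are given as descriptions without a test. In the 300 bases from 250 before to 50 after the gene start, the median observed over expected CpG ratio was 0.683 for the 159 genes higher in BrM2, 0.765 for the 104 higher in LM2 and 0.813 over all 13064 genes. A ratio of at least 0.6 was found for 61.6%, 71.2% and 78.7%. The median G and C content was 62%, 68% and 64%. Called promoter peaks had a median length of 1585 bp (higher in BrM2) and 1531 bp (higher in LM2) against 2285 bp over all promoter peaks.

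In the same 300 bases, on both strands, 5 motifs were searched, none of which contains another. The TATA box TATAAA was found at 11.9% of the genes higher in BrM2, at 6.73% of those higher in LM2 and at 6.14% of all genes with a promoter peak. The ETS motif CCGGAAG was found at 5.66%, 4.81% and 16.7%, the E-box CACGTG at 4.40%, 8.65% and 9.32%. The AP-1 motif TGANTCA was found at 5.03%, 3.85% and 4.80%, and the CCAAT box at 37.7%, 30.8% and 35.8%. A match shows these letters only and does not show that a factor binds there. Of the sequences printed above, those before KHDRBS2, NRK and IRX2 hold a CCAAT box, and none of the 5 holds another of these motifs.

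Outside gene starts and other transcript starts, 103 called peaks lay at the start of a long non-coding RNA (6.90% of such peaks), 106 inside a protein-coding gene (3.25%) and 179 between genes (4.09%). Between genes, 121 of the 179 were higher in BrM2. The largest called peak between genes that met the naming conditions lay at chr3:104157424-104164743, 921010 bp from the nearest protein-coding gene start, that of ALCAM, and was chosen after its values were seen. It had 651 and 764 in BrM2 against 1.52 and 5.82 in LM2 (7.31 ± 0.59, adjusted p = 4.71e-31), with 47.8 and 23.1 in Par. H3K27ac there was higher in BrM2 as well (3.94 ± 0.37, adjusted p = 2.38e-22).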

How the data were processed

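H3K4me3 and H3K27ac ChIP-seq libraries of BrM2, LM2 and Par (2 replicates per line and mark, 12 libraries) were used, and the 3 input samples were not analysed. Group and replicate number of each library came from the sample titles, and 0 count columns were left without a sample. Per the labels and the study's methods, the authors trimmed reads with Trimmomatic 0.32, aligned them to hg19 with Bowtie2 2.3.4.3, marked duplicates with Picard 2.18.21, called broad peaks with MACS2 2.1.2 on the merged libraries of a mark and counted reads per peak with featureCounts. The deposited values are raw read counts per consensus peak with no normalization, and a region marked in 1 line only can be missed by calling on merged libraries. Peak length is the score beside the counts in the deposited tables and was used only per kb.

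Peaks were assigned to gene starts within 2 kb with GENCODE release 44 on GRCh37, whose coordinates equal hg19. The 6 libraries of a mark entered 1 DESeq2 1.42.0 fit (R 4.3.3) with line as the only term, default size factors, log2 fold changes without shrinkage and default independent filtering, and BrM2 was contrasted with LM2 with 3 residual degrees of freedom. Errors are standard errors of the fit, and n = 2 per line throughout. The study's methods call the replicates biological, and p-values measure the spread between them. A called peak had a Benjamini-Hochberg adjusted p under 0.05. The fits were tested on simulated data first. The simulated counts held no effect shared by same-numbered libraries, so that they cannot decide between the fits without and with the block. Marks were paired where peaks shared at least 1 bp.

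Lines share replicate numbers. Libraries with the same number deviated from their line's mean together, with r = 0.843 for Par with LM2, 0.788 for Par with BrM2 and 0.825 for LM2 with BrM2 in H3K4me3, and 0.407, 0.607 and 0.48 in H3K27ac, over peaks with a mean of at least 50, all above the limit of 0.1 set for pairing. The pairing rests on the titles' numbers and these values. A fit with the replicate block (2 residual degrees of freedom) is given where it moves a result.

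Named were the 12 highest and 12 lowest log2 fold changes among promoter peaks that were called without and with the block in the same direction, with a mean count of at least 50 and no overlap of the lines, the 6 strongest per kb in each direction with an absolute log2 fold change of at least 1, up to 4 called members per list and direction, and 6 example genes of the study. Of 795 list symbols, 792 matched an annotated gene, older symbols through RefSeq synonyms. Members, lists and tests were chosen with earlier results of these data known. Alternatives were edgeR 4.0.16 (quasi-likelihood, TMM), the block, other scalings, filters and windows, and leaving out each library. Intervals and floors cover counting error only.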

Additional observations from a re-analysis of the deposited data

How the results depend on the processing

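With the replicate block, called H3K4me3 peaks went from 717 to 4771 in DESeq2 and 8034 in edgeR, promoter peaks from 248 to 3130 and 4960, genes from 263 to 3654 and 5801, and H3K27ac peaks from 1366 to 2574 and 8092. The share higher in BrM2 turned from 64.6% to 40.9% and 40.7% of called H3K4me3 peaks, and from 59.3% to 34.6% and 33.8% of promoter peaks, and the cause was not tested. Among the 75 peaks named by rule, the block added a call at EMP2 and changed no other call. At other transcript starts it added calls at CDH18 and PLCB1. List members mentioned above as not called are not covered by this. Several lists gained calls with the block, such as the luminal markers, with 4 higher in BrM2. Loess offsets gave 1095 peaks (54.5% higher in BrM2), 464 promoter peaks (49.6%) and 501 genes. With chromosome medians removed, 68.7% of called peaks were higher in BrM2. An adjusted p under 0.01 left 477 H3K4me3 and 693 H3K27ac peaks, and edgeR without the block called 2441 H3K27ac peaks. Leaving out 1 library at a time gave 196 to 625 H3K4me3 peaks, 101 to 214 promoter peaks, 105 to 226 genes and 103 to 1053 H3K27ac peaks, with 62.9 to 74.0% and 56.8 to 68.5% higher in BrM2 among called peaks and called promoter peaks. A line left with 1 library was assumed to vary like the others. EMP2, which was not called, changed sign without BrM2 replicate 2, over a range of -1.25 to 0.049.

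Of the 66 named called promoter peaks, 28 were called without each library in turn, 60 with edgeR and 57 with chromosome medians removed. Of the 24 with the largest fold changes, 23 were called without each library. The other alternatives (TMM size factors, no independent filtering, a mean count of at least 10, only the BrM2 and LM2 libraries, and promoter windows of 1 or 5 kb or any transcript start) kept the counts they apply to within 1.5 times. With 2 replicates per line, weak promoters hold few reads in the lower line, and replicate 1 of each line had fewer counts in H3K4me3 peaks than replicate 2.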
